A study of Mus musculus with 6 samples.

Results

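The genes described, 10 in number, belong to the NF-kappaB system: the 5 subunit genes Nfkb1, Nfkb2, Rel, Rela and Relb, and the inhibitor and feedback genes Nfkbia, Nfkbiz, Tnfaip3, Birc3 and Ier3. They were taken by symbol from a table of 33276 genes, and all 10 were found and passed the filter on low counts. The table held raw read counts of 3 circulating and 3 muscle samples of fibroadipogenic progenitors (FAPs), mesenchymal cells that lie between muscle fibres. Circulating FAPs came from peripheral blood and muscle FAPs from muscle, all from mice labelled MCAO, an abbreviation for middle cerebral artery occlusion, a model of ischaemic stroke made by closing a brain artery. Every group therefore carried the occlusion, and no group without it was analysed here. The labels gave no age, no time after occlusion, no sorting gate, and no statement that samples of one group came from different mice, so the p-values measure a spread between samples that may be technical.

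NF-kappaB transcription factors are dimers of 5 related subunits that share the Rel homology domain, which binds DNA. In resting cells IkappaB proteins hold the dimers in the cytoplasm. After a signal such as TNF or IL-1, the IkappaB kinase marks IkappaB for degradation and the dimers enter the nucleus. The genes of several inhibitors, among them Nfkbia and Tnfaip3, are themselves targets of NF-kappaB, so the pathway switches on its own restraint. In fibroblasts this system drives chemokines, IL-6 and prostaglandin synthesis.

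Promoter sequences are shown for the 4 feedback genes with a RefSeq promoter entry and no overlap between the groups, because Nfkbia and Tnfaip3 are textbook targets of the factors described. RefSeq entries (build GRCm38.p6, not the GRCm39 of the counts) matched 7 of the 10 genes. Of 2 annotated starts of Tnfaip3 the upstream one is shown. The 250 bases before the transcription start are printed 5′ to 3′ on the strand of the gene, and capitals mark matches to the 10-base kappaB consensus on either strand.
Nfkbia (chr12:55492648-55492897, minus strand): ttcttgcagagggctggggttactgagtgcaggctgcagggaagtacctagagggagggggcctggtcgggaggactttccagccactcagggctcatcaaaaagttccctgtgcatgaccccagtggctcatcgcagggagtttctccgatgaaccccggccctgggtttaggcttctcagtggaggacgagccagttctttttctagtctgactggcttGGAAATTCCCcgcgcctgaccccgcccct
Tnfaip3 (chr10:19015411-19015660, minus strand): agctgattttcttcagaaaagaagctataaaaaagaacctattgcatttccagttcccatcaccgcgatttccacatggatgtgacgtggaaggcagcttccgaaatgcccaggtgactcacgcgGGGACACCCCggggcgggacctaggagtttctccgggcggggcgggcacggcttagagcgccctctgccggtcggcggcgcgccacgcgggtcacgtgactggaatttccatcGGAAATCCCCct
Birc3 (chr9:7873171-7873420, minus strand): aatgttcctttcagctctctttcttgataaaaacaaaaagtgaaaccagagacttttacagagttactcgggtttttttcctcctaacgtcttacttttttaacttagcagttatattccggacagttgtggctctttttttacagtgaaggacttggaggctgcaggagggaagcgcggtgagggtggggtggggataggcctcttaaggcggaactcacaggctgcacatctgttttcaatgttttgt
Ier3 (chr17:35821463-35821712, plus strand): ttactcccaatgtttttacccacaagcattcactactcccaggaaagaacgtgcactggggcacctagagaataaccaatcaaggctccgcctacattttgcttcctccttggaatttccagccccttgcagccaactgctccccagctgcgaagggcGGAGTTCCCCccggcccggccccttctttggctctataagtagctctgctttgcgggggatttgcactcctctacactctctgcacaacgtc
Nfkbia held the match GGGAATTTCC on the opposite strand from position -29, counted from the start with -1 as the base before it, and Tnfaip3 held GGGGATTTCC on the opposite strand from position -12 as well as GGGACACCCC from position -125. Ier3 held the match GGGGAACTCC on the opposite strand, and no match was found in these letters of Birc3. In windows of 300 bases, from 250 before to 50 after the start, the kappaB consensus was found on either strand in 7 of the 10 windows of the matched genes and in 8.46% of all 32851 promoter windows. These 7 windows belong to 5 of the 7 matched genes (Nfkbia, Tnfaip3, Ier3, Rel and Nfkb2), of which Nfkb2 has 3 windows, all with a match and 2 of them sharing one, and Tnfaip3 has 2. Matches on the 2 strands can overlap each other, and a match is a description of letters, not of binding.

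The libraries held 5522193 to 13813329 counts in the circulating group and 17532558 to 23424039 in the muscle group. Of these, 18S ribosomal RNA took 42.9% to 60.1% in circulating and 27.8% to 32.3% in muscle libraries, where the same 18S reads stood under 2 symbols. Pdgfra, the receptor that marks FAPs, was present at 201 ± 16.5 counts per 1000000 (CPM, scaled by trimmed mean of M values, TMM; mean ± SD, n = 3) in circulating and 608 ± 209 CPM in muscle libraries. The 12 FAP markers summed to 27001 to 29006 CPM in circulating and 59414 to 70127 CPM in muscle libraries, and Gsn alone was at 14537 ± 1493 and 33197 ± 3770 CPM. Of the 12, DESeq2 called 7 lower and 1 higher in circulating FAPs, against 10.3% and 1.15% of all the genes it tested. The higher one was Dpp4 (142 ± 63.1 against 29.6 ± 7.01 CPM, log2 fold change 2.26 in edgeR, adjusted p = 0.127 in edgeR and 0.00626 with DESeq2), and Pi16, at 820 ± 441 and 296 ± 109 CPM (1.47), also had a positive value that passed in neither tool. Both mark a stem-like subset of fibroblasts. The tests below used the quasi-likelihood test of edgeR over 20248 genes with Benjamini-Hochberg adjustment and a threshold of 0.05, and fold changes are log2, circulating minus muscle. In these bulk samples, fewer cells expressing a gene and less RNA per cell cannot be told apart.

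None of the 10 genes passed in edgeR, where 0.104% of all tested genes were called lower and 0.00494% higher. At an unadjusted p under 0.05 in edgeR, 5 of the 10 were lower and none higher, against 9.64% and 9.69% of all tested genes and, on the lower side, 21.8% of the 4724 tested genes with a mean of at least 20 CPM. The log2 fold change was negative for 8 of the 10, against 45.5% of all tested genes and 78.3% of those of at least 20 CPM. With DESeq2, 4 were called, all lower (Nfkb1, Tnfaip3, Birc3 and Ier3), against 10.3% of the genes it tested and 15.2% of those of at least 20 CPM. All circulating libraries lay below all muscle libraries for 6 of the 10 (11.4% of all tested genes, and 28.8% of those of at least 20 CPM), and above them for 1 (16.2% of all tested genes). The median log2 fold change of the 10 was -0.83, beside 0.15 over all tested genes and -0.65 over those of at least 20 CPM. These counts depend on how libraries are scaled. When scaling used only genes of at least 20 CPM, called scaling on abundant genes here, the median of all tested genes shifted by 0.70 and that of the 10 genes became -0.19. No overlap then remained on the lower side for 3 of the 10 (Nfkb1, Tnfaip3 and Birc3), against 4.25% of all tested genes. On the higher side none remained for 2 (Rel and Rela), against 30.9%. Of the 4724 tested genes of at least 20 CPM, 507 had no overlap on the lower side and 382 on the higher side.

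**Figure D1:**
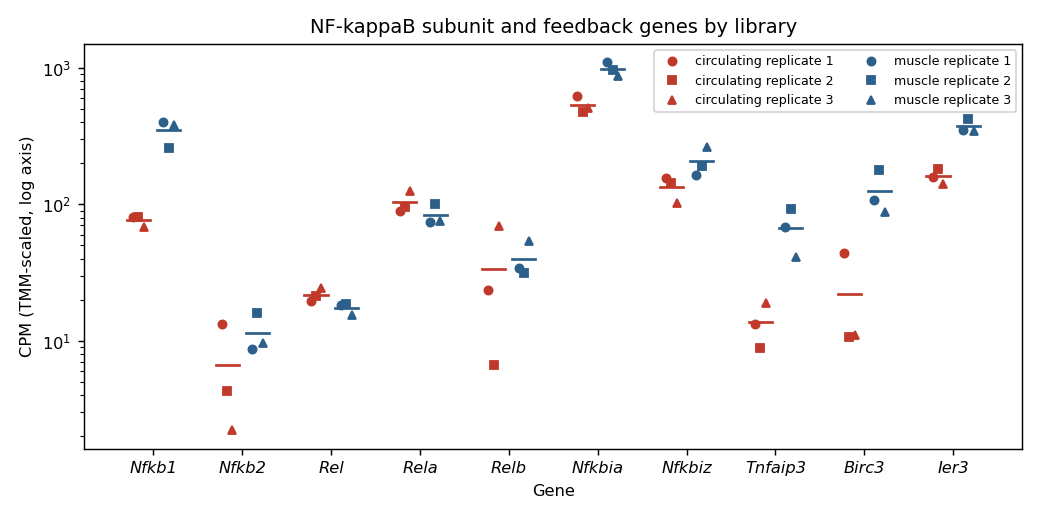
Level of each gene in each library, in TMM-scaled CPM on a log axis, with circulating libraries in red, muscle libraries in blue and a line at the mean of each group. Nfkb1, Nfkbia, Nfkbiz, Tnfaip3, Birc3 and Ier3 have all circulating libraries below all muscle libraries, while Rel has all of them above.

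Among the subunits, DESeq2 called Nfkb1 lower on all 6 libraries and called no other. Nfkb1 encodes p105, the precursor that is processed to the p50 subunit and also acts as an inhibitor through its ankyrin repeats. Its level was 80.1, 81.1 and 67.8 CPM in circulating replicates 1, 2 and 3, and 403, 261 and 382 CPM in muscle replicates 1, 2 and 3. The circulating libraries lay close together, and the lowest muscle library was still above the highest circulating one. The means were 76.4 ± 7.41 and 349 ± 77.0 CPM (SD, n = 3), which is 4.57-fold lower in circulating FAPs by the fit. The log2 fold change was -2.19 ± 0.37 (SE), which missed the threshold in edgeR (adjusted p = 0.0620) and passed it in DESeq2 (-2.37 ± 0.49, adjusted p = 0.000112). Over the other edgeR settings the adjusted p of Nfkb1 ran from 0.0230 with no filter on low counts to 0.264 without muscle replicate 3, and it also passed with RLE size factors (adjusted p = 0.0471). With scaling on abundant genes its log2 fold change was -1.45 (adjusted p = 0.0882 in edgeR).

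Rela encodes p65, the subunit with a transactivation domain that pairs with p50 in the main inflammatory dimer. Rela was at 89.6, 95.5 and 125 CPM in the circulating libraries and at 74.6, 99.8 and 75.4 CPM in the muscle libraries. The groups overlapped, with muscle replicate 2 inside the circulating range, and the log2 fold change was 0.31 ± 0.42 (SE; adjusted p = 0.684 in edgeR). Rel encodes c-Rel, a transactivating subunit best known from lymphoid cells. Rel was at 19.6, 21.3 and 24.3 CPM in circulating and 18.1, 18.6 and 15.5 CPM in muscle libraries. Each circulating library was above each muscle library for Rel, by a margin smaller than the spread within either group. Its log2 fold change of 0.32 ± 0.58 did not pass (adjusted p = 0.766 in edgeR). With scaling on abundant genes the values of Rela and Rel were 1.01 and 1.03 (adjusted p = 0.155 and 0.279 in edgeR).

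Nfkb2 and Relb belong to the alternative pathway, in which the precursor p100 is processed to p52, the usual partner of RelB. Relb was at 23.5, 6.63 and 69.7 CPM in circulating replicates 1, 2 and 3 and at 34.2, 31.4 and 53.8 CPM in the muscle libraries. Circulating replicate 3 held the highest Relb value of all 6 libraries and circulating replicate 2 the lowest. The standard deviation of log2 CPM for Relb was 1.65 among circulating and 0.41 among muscle libraries, where the medians over all tested genes were 0.58 and 0.54. The fit gave -0.26 ± 0.78 (adjusted p = 0.863 in edgeR), and the sign of this value turned with scaling on abundant genes (0.45) and without circulating replicate 2 (0.15). Nfkb2 was at 13.3, 4.24 and 2.19 CPM in circulating and 8.69, 15.9 and 9.64 CPM in muscle libraries. Its highest circulating library was inside the muscle range, and in circulating replicates 2 and 3 it rested on 32 and 20 reads. The log2 fold change of Nfkb2 was -0.79 ± 0.77 (adjusted p = 0.565 in edgeR). Without circulating replicate 1 it was -1.89 in edgeR (adjusted p = 0.268) and -1.98 in DESeq2 (adjusted p = 0.0503), and with scaling on abundant genes it was -0.21 (adjusted p = 0.870 in edgeR). In GENCODE M21, which may differ from the annotation of the counts, the exons of Nfkb2 alone among the 10 overlap other genes. Psd, a neighbour on the opposite strand that is in the table, overlaps 6.52% of the Nfkb2 exon bases. AC114539.1, a long non-coding RNA gene on the opposite strand, overlaps 11.6% and was not in the table under that name. Psd itself had 4 to 38 reads per library, and whether the counting used strand was not given in the sources used here.

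Nfkbia and Nfkbiz, which encode proteins of the IkappaB family, passed in no setting tried. Nfkbia encodes IkappaB-alpha, which retains NF-kappaB in the cytoplasm and is resynthesised after each activation. It was the most abundant of the 10, at 620, 476 and 511 CPM in circulating and 1102, 963 and 876 CPM in muscle libraries. The lowest muscle library was above the highest circulating one, with little spread in either group. The log2 fold change of -0.87 ± 0.27 did not pass in edgeR (adjusted p = 0.178) or DESeq2 (adjusted p = 0.121), and it was -0.17 with scaling on abundant genes, where the groups overlapped. Nfkbiz encodes IkappaB-zeta, a nuclear member of the IkappaB family that acts with p50 on a subset of targets. Nfkbiz was at 156, 144 and 103 CPM in circulating and 164, 192 and 263 CPM in muscle libraries. The groups nearly touched, and the log2 fold change was -0.62 ± 0.39 (adjusted p = 0.387 in edgeR). Its sign turned in 3 settings, to 0.081 under upper quartile scaling, 0.10 under scaling on abundant genes and 0.18 in DESeq2 with abundant-gene size factors.

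Tnfaip3 encodes A20, a ubiquitin-editing enzyme that shuts down signalling from TNF and Toll-like receptors. Its level was 13.3, 8.88 and 18.7 CPM in circulating and 67.8, 92.9 and 41.0 CPM in muscle libraries. All muscle libraries lay well above the circulating ones, although they differed among themselves. The log2 fold change was -2.30 ± 0.60, or 4.93-fold lower, which missed the threshold in edgeR (adjusted p = 0.147) and passed it in DESeq2 (adjusted p = 0.00101). Birc3 encodes cIAP2, a ubiquitin ligase that acts at TNF receptors and restrains cell death. Birc3 was at 43.9, 10.6 and 11.1 CPM in circulating and 107, 179 and 87.6 CPM in muscle libraries. Circulating replicate 1 was higher than the other circulating libraries but still below each muscle library. The log2 fold change of Birc3 was -2.51 ± 0.68 (adjusted p = 0.153 in edgeR; 0.00349 with DESeq2). Without circulating replicate 1 it was -3.59 and passed in edgeR (adjusted p = 0.0453), within a range of 0.0453 to 0.297 over the edgeR settings.

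Ier3 encodes IEX-1, a short-lived stress response protein whose gene is an immediate early target of NF-kappaB. It was at 158, 183 and 141 CPM in circulating and 351, 421 and 348 CPM in muscle libraries. The groups were clearly separate with TMM scaling, and the log2 fold change was -1.21 ± 0.33 (adjusted p = 0.154 in edgeR). With scaling on abundant genes the groups overlapped and the value was -0.50 (adjusted p = 0.332 in edgeR), or -0.42 with DESeq2 size factors from abundant genes (adjusted p = 0.586). With DESeq2, Ier3 passed on all 6 libraries (adjusted p = 0.0297) and on no set of 5, while Nfkb1, Tnfaip3 and Birc3 passed on each set of 5. When DESeq2 size factors came from abundant genes, Birc3 alone passed (-1.87, adjusted p = 0.0492), against 1.22% of tested genes called lower and 11.9% higher, and Nfkb1 had adjusted p = 0.0543.

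**Figure D2:**
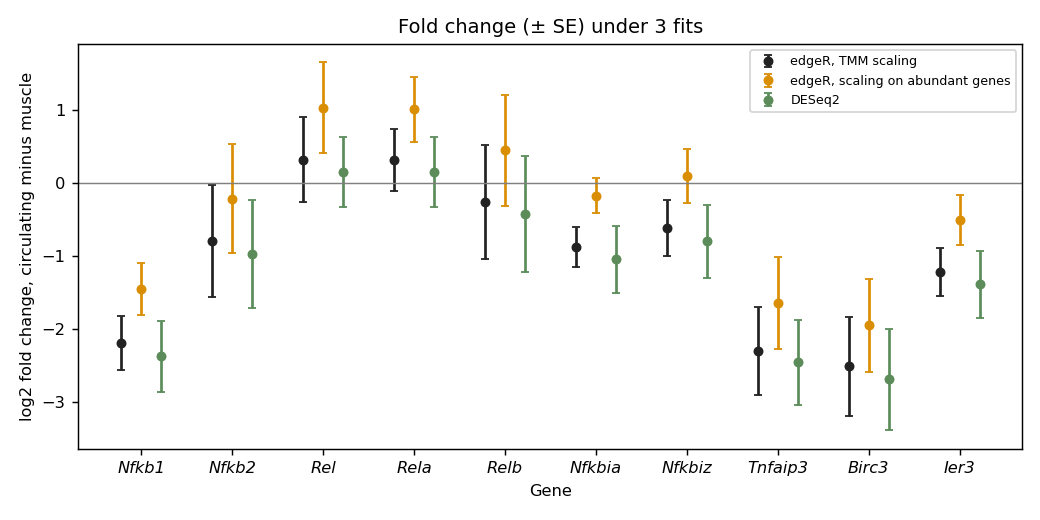
Log2 fold change of each gene, circulating minus muscle, with its SE, from edgeR with TMM scaling, edgeR with scaling on abundant genes and DESeq2. Nfkb1, Tnfaip3 and Birc3 lie at -1.45 or lower in each of these fits, whereas Relb and Nfkbiz change sign with scaling on abundant genes.

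Ratios of genes within a library do not depend on scaling between libraries, so 4 ratios were set against each other by group with an exact permutation test, two-sided. The count ratio of Nfkb1 to Rela was 0.895, 0.850 and 0.543 in circulating replicates 1, 2 and 3 and 5.41, 2.61 and 5.07 in muscle replicates 1, 2 and 3. Nfkb1 thus had fewer reads than Rela in every circulating library and more in every muscle library. These reads were not corrected for length, and Nfkb1 has 12061 exon bases against 3072 for Rela. A ratio above or below 1 therefore does not rank the 2 genes. Per kilobase of exon, Nfkb1 was below Rela in muscle replicate 2 (21.6 against 32.5 CPM) and above it in muscle replicates 1 and 3. The mean log2 ratios were -0.43 ± 0.40 and 2.05 ± 0.58 (SD, n = 3), a difference of -2.48 (exact permutation p = 0.1, the smallest that 3 against 3 allows; 0.133 adjusted over the 4 ratios). Tnfaip3 to Rela was 0.149, 0.0937 and 0.150 in circulating and 0.909, 0.931 and 0.544 in muscle libraries, a log2 difference of -2.59 (exact permutation p = 0.1; 0.133 adjusted). Nfkbia to Rela was 6.92, 4.98 and 4.08 in circulating and 14.8, 9.65 and 11.6 in muscle libraries, a log2 difference of -1.19 (exact permutation p = 0.1; 0.133 adjusted). These 3 ratios had no overlap between the groups, and leaving out any 1 library left the Nfkb1 to Rela difference between -2.81 and -2.25. They share the denominator Rela, so they are not independent of each other. Rela itself had a log2 fold change of 0.31 in edgeR, beside a median of -0.65 over tested genes of at least 20 CPM. How often other genes show no overlap over Rela was not tested. Nfkb2 to Relb overlapped, at 0.567, 0.644 and 0.0322 in circulating and 0.255, 0.508 and 0.180 in muscle libraries (exact permutation p = 1). A ratio shows that its genes differed unequally, not which of them moved.

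**Figure D3:**
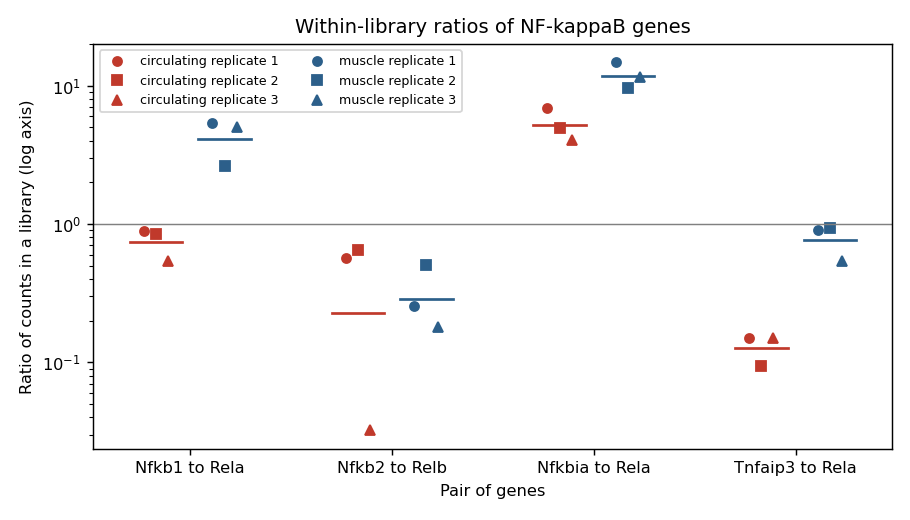
Ratio of read counts of a pair of genes in each library on a log axis, with circulating libraries in red, muscle libraries in blue and a line at the geometric mean. Nfkb1 to Rela is below 1 in all circulating and above 1 in all muscle libraries, and Nfkb2 to Relb overlaps. Counts are not corrected for gene length, so a position above or below 1 does not rank the genes of a pair.

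Levels were compared between genes per kilobase of exon (union of annotated exons, GENCODE M21). This union takes in the exons of every annotated transcript, 12061 bases for Nfkb1, so the order of genes depends on it. Other lengths were not tried. In muscle libraries the order by CPM per kilobase was Nfkbia (609 ± 70.7; SD, n = 3), Ier3 (330 ± 36.4), Nfkbiz (41.1 ± 10.2), Nfkb1 (28.9 ± 6.38), Rela (27.1 ± 4.67), Birc3 (24.9 ± 9.63), Relb (10.2 ± 3.15), Tnfaip3 (9.30 ± 3.59), Nfkb2 (2.49 ± 0.861) and Rel (2.33 ± 0.225). Neighbours from Nfkbiz to Birc3 overlapped in their ranges, as did Relb with Tnfaip3 and Nfkb2 with Rel. In circulating libraries Nfkbia (333 ± 46.9 CPM per kilobase) and Ier3 (142 ± 18.6) again led, followed by Rela (33.7 ± 6.19) and Nfkbiz (26.8 ± 5.58), whose ranges overlapped. Nfkb1 was at 6.33 ± 0.614 CPM per kilobase there, between Relb (8.56 ± 8.41) and Birc3 (4.36 ± 3.81) and within the range of both. Below them came Rel (2.91 ± 0.320), Tnfaip3 (1.89 ± 0.681) and Nfkb2 (1.44 ± 1.29), of which Rel lay above Tnfaip3 in every circulating library.

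Low levels were set against a background of reads, taken as the median reads per kilobase of 556 genes of sensory receptors (vomeronasal, taste and trace amine) that other tissues keep silent. This median was 3.60 to 6.50 reads per kilobase in circulating and 4.33 to 5.18 in muscle libraries, although the muscle libraries held more reads. Nfkb1 was at 14.0 ± 0.136 times background in circulating and 121 ± 34.7 times in muscle libraries (SD, n = 3). Tnfaip3 was at 4.28 ± 1.93 and 37.4 ± 11.1 times background, and Birc3 at 9.46 ± 7.85 and 101 ± 30.9 times. Nfkb2 came down to 1.17 times background in circulating replicate 3, and was at 3.08 ± 2.67 times in circulating against 10.2 ± 2.97 times in muscle libraries. Rel was at 6.51 ± 1.31 and 9.57 ± 0.248 times background, so by this measure its circulating libraries were the lower ones. Rela, at 75.6 ± 21.3 and 111 ± 15.6 times background, also had the lower mean there, with overlapping groups. Relative to TMM-scaled library size, the background was higher in each circulating than in each muscle library. This measure therefore lowers circulating values against muscle values more than CPM does, for every gene. The share of low members' reads that is background was not tested.

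**Figure D4:**
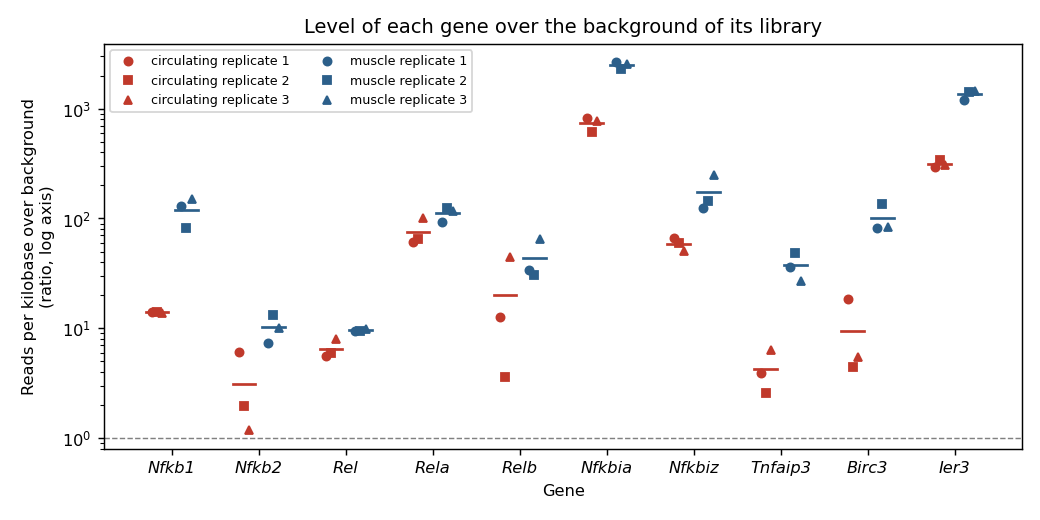
Reads per kilobase of each gene divided by the background of its own library, on a log axis, with a dashed line at 1. In circulating libraries Nfkb2, Rel and Tnfaip3 lie closest to the background, by their means, while Nfkbia and Ier3 lie furthest above it.

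The remaining genes of the pathway were read from lists by role, 109 genes in all, of which 100 were tested. None of these passed in edgeR. At an unadjusted p under 0.05 in edgeR, 17 were lower and 6 higher, against 9.64% and 9.69% of all tested genes. On the lower side the share was 21.8% of tested genes of at least 20 CPM. DESeq2 called 11 lower and 1 higher, against 10.3% and 1.15% of the genes it tested. Their median log2 fold change was -0.53, or 0.15 with scaling on abundant genes, where 1 of the 100, C3, was called and was higher. The same medians were 0.15 and 0.85 over all tested genes, and -0.65 and 0.06 over those of at least 20 CPM.

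Ligands and receptors gave no call in either tool. Tnf was at 0.24 to 7.19 CPM in muscle and 0.15 to 9.55 CPM in circulating libraries, and Il1b, at 14.9 CPM, was high only in circulating replicate 2. The 2 most abundant ligands tested were Il33, an alarmin (56.8 ± 36.1 CPM in circulating against 69.1 ± 35.1 CPM in muscle), and Tnfsf12, which encodes TWEAK (33.6 ± 14.5 and 34.0 ± 11.4 CPM). Of the receptors, Tnfrsf1a, the main TNF receptor, was at 118 ± 15.2 CPM in circulating against 215 ± 29.2 CPM in muscle libraries (-0.87 ± 0.37), and did not pass. Tnfrsf12a, the receptor of TWEAK, was at 57.5 ± 28.9 and 109 ± 18.1 CPM (-0.92 ± 0.50).

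Among 12 kinases DESeq2 called 1, Map3k14, which encodes NIK, the kinase that starts the alternative pathway. Over all the genes it tested, DESeq2 called 10.3% lower and 1.15% higher. Map3k14 was at 3.51 ± 0.880 CPM in circulating against 15.4 ± 3.88 CPM in muscle libraries (-2.13 ± 0.64; adjusted p = 0.171 in edgeR, 0.00120 with DESeq2). The IkappaB kinase genes overlapped between the groups, with Chuk at -1.48 ± 0.72, Ikbkb at -0.53 ± 0.59 and Ikbkg at -1.15 ± 0.73. Map3k8, the kinase that p105 binds and holds inactive, was at 24.9 ± 8.15 CPM in circulating against 67.3 ± 42.9 CPM in muscle libraries. Tab2, an adaptor of the kinase TAK1 and the other of the 2 most abundant on that list, was at 42.9 ± 48.7 and 40.0 ± 21.3 CPM. Of 20 adaptors and ubiquitin ligases DESeq2 called Irak2 higher (12.7 ± 14.8 against 0.877 ± 0.759 CPM; adjusted p = 0.172 in edgeR, 0.00799 with DESeq2), with 29.8 CPM in circulating replicate 2 and 4.29 and 4.05 CPM in replicates 1 and 3. Ripk1, a kinase of the TNF receptor complex (-0.27 ± 0.49), and Irak1 (-0.58 ± 0.51) were the most abundant there and overlapped between the groups. Birc2, the close relative of Birc3, was at 43.6, 83.8 and 30.8 CPM in circulating and 144, 126 and 124 CPM in muscle libraries (-1.32 ± 0.49, adjusted p = 0.209 in edgeR).

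Other restraining genes gave 2 calls among 16 with DESeq2, both lower, Rnf11 and Pdlim2, and none in edgeR. DESeq2 called 10.3% of all the genes it tested lower, and 15.2% of those of at least 20 CPM. Rnf11, a partner of A20, was at 20.2 ± 4.72 and 82.8 ± 60.5 CPM, and Pdlim2, which promotes degradation of p65, at 17.3 ± 16.1 and 62.7 ± 15.9 CPM. The most abundant of these, Tax1bp1, also a partner of A20, was at 83.1 ± 50.2 and 170 ± 72.2 CPM (-1.03 ± 0.54), and Irak3, a brake on Toll-like receptors, at 90.1 ± 92.9 and 42.2 ± 4.84 CPM (1.09 ± 0.75). Of the other IkappaB proteins, Bcl3, a nuclear partner of p50 and p52, was at 44.7 ± 21.2 and 52.4 ± 22.9 CPM, and Nfkbib at 3.05 ± 2.94 and 8.99 ± 2.26 CPM. Neither passed in either tool.

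Induced cytokines and chemokines had the lowest median of the lists with more than 5 tested genes, at -1.59 over 12 genes (-0.92 with scaling on abundant genes). DESeq2 called 6 of the 12 lower (Cxcl1, Cxcl2, Cxcl5, Ccl2, Il6 and Lif) and none higher, against 10.3% of the genes it tested called lower and 15.2% of those of at least 20 CPM. Cxcl1, a neutrophil chemoattractant, was at 714 ± 214 CPM in circulating against 2255 ± 263 CPM in muscle libraries (-1.66 ± 0.29; adjusted p = 0.0715 in edgeR, 0.00594 with DESeq2). Cxcl2, another neutrophil chemokine, was at 20.6 ± 9.07 and 137 ± 33.0 CPM (-2.74 ± 0.54; adjusted p = 0.0909 in edgeR, 4.69e-05 with DESeq2). Ccl7, a monocyte chemoattractant, was at 203 ± 188 and 584 ± 74.0 CPM. Other induced targets went both ways. Ptgs2, the inducible prostaglandin synthase, was at 140 ± 20.9 and 475 ± 64.8 CPM (-1.76 ± 0.33; adjusted p = 0.0837 in edgeR, 0.00158 with DESeq2). C3, the central complement component, was at 2083 ± 207 CPM in circulating against 1053 ± 120 CPM in muscle libraries (0.98 ± 0.24). Each circulating library was above each muscle one for C3, but with TMM scaling it did not pass in edgeR (adjusted p = 0.130), nor did it with DESeq2 (adjusted p = 0.248).

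**Figure D5:**
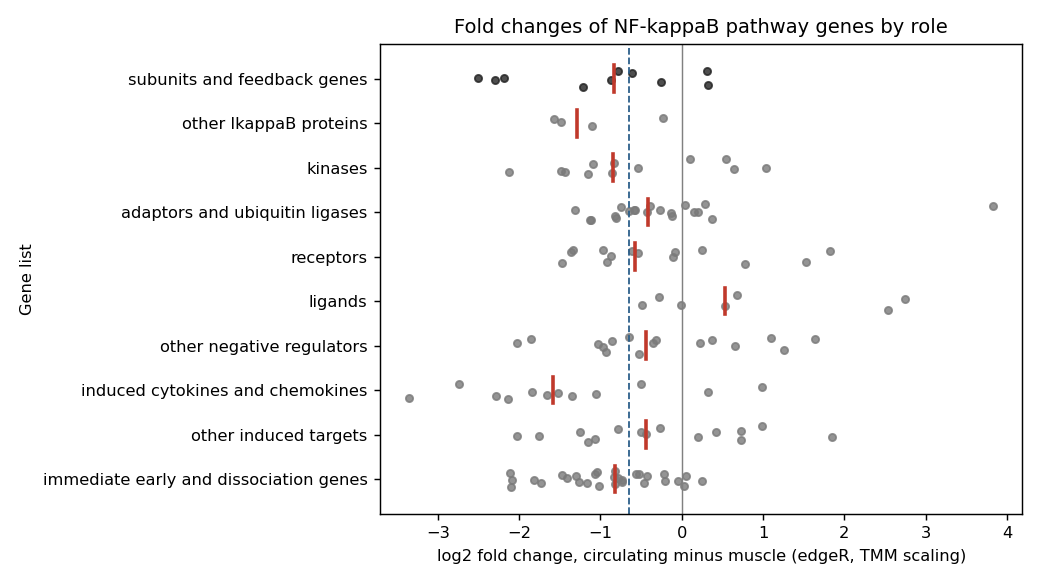
Log2 fold change, circulating minus muscle, of each tested gene by role, from edgeR with TMM scaling, with a red bar at the median of each list and a dashed blue line at -0.65, the median of all tested genes of at least 20 CPM. Most genes lie below 0, and the cytokine and chemokine list has its median at -1.59.

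Genes induced by handling and dissociation of cells were measured beside these values. Of 30 immediate early and dissociation genes, 29 were tested, 1 passed in edgeR (Fosb, -2.10 ± 0.29, adjusted p = 0.0340; 0.104% of all tested genes were called lower) and 8 with DESeq2, all lower (10.3% of the genes it tested and 15.2% of those of at least 20 CPM). All circulating libraries lay below all muscle libraries for 20 of the 29, against 11.4% of all tested genes and 28.8% of those of at least 20 CPM. The list summed to 8897 to 10180 CPM in circulating and 16020 to 19445 CPM in muscle libraries, with a median log2 fold change of -0.83, beside -0.65 over all tested genes of at least 20 CPM. With scaling on abundant genes the median of the list was -0.16, and 19 rather than 26 of its genes had a negative value. No overlap on the lower side was left for 8 rather than 20 (4.25% of all tested genes). Of the 4724 tested genes of at least 20 CPM, 2234 rather than 3701 were then negative. For 507 rather than 1360 of them the groups had no overlap on the lower side. Ier3 and Nfkbia are themselves rapidly induced genes, and the part of handling in the values of the 10 genes was not tested.

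Of the 6 leukocyte markers tested, DESeq2 called 3 higher in the circulating libraries and edgeR none. Over all the genes it tested, DESeq2 called 1.15% higher and 10.3% lower. The 8 leukocyte markers summed to 46.1 to 166 CPM in circulating and 9.79 to 16.8 CPM in muscle libraries, and none of the 8 was at 0 in every library of a group. Tyrobp had 0 reads in muscle replicates 1 and 2 and 4 in replicate 3, and Fcer1g had 0 in muscle replicate 3. Ptprc, which encodes CD45, was at 11.6 ± 2.37 and 6.39 ± 1.63 CPM, and Laptm5, the most abundant of these markers, was at 107, 29.2 and 7.77 CPM in circulating replicates 1, 2 and 3 and at most 1.02 CPM in muscle libraries. Monocyte and macrophage markers summed to 40.0 to 268 and 10.2 to 25.4 CPM, with Csf1r at 14.9 ± 15.2 and 1.90 ± 0.831 CPM and Cd14 at 29.8 ± 22.9 and 2.97 ± 0.930 CPM. Of the 7 of these tested, DESeq2 called 3 higher, among them Csf1r (adjusted p = 0.0117) and Cd14 (adjusted p = 0.00513), and edgeR none. Neither tool called a neutrophil or lymphocyte marker. Neutrophil markers summed to 14.6 to 118 and 5.62 to 10.9 CPM, with S100a8 at 61.2 CPM in circulating replicate 3. Lymphocyte markers summed to 11.3 to 17.9 and 7.68 to 10.7 CPM. The 6 pericyte and smooth muscle markers split evenly, with 3 negative and 3 positive log2 fold changes. DESeq2 called 1, Rgs5, lower (5.18 ± 0.476 against 41.4 ± 27.6 CPM), whereas Myh11, at 13.1 ± 8.48 and 3.65 ± 1.77 CPM (1.85), Acta2 (0.85) and Tagln (0.19) had positive values that did not pass. The summed ranges overlapped for platelet, red cell, endothelial, satellite cell and muscle fibre, and pericyte markers. Leukocytes express many NF-kappaB genes, and their part in the circulating levels of Rel, Relb, Il1b and Irak2 was not tested.

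Profiles over the 6 libraries were compared by the root mean square difference of log2 CPM after centring each gene, over 4664 genes of at least 20 CPM. The genes most like Nfkb1 were Acsl3, a fatty acid activating enzyme (0.15 log2 units), Bod1 (0.15) and the AP-1 subunit gene Fosb (0.16), where the median gene differed by 0.99. Those most like Nfkbia included the tetraspanin gene Cd63 (0.06) and Pcolce, an enhancer of procollagen processing (0.11), where the median gene differed by 0.71. Among the 10, Rel and Rela were nearest to each other (0.13), and Nfkbia and Ier3 were nearest to each other (0.28). Relb had the most distant nearest neighbour, Nfkbia, at 0.98.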

How the data were processed

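RNA-seq read counts per gene symbol were deposited by the authors as 1 table of raw counts with 1 column per sample. Per the submitters' processing notes, the tools were Trim Galore, STAR and featureCounts and the build GRCm39; versions, options and annotation were not given in the sources used here. Per the labels' protocols, libraries were made with a TruePrep kit, which fragments DNA with a transposase.

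The members and gene lists were chosen with earlier results of these data known. Named genes were all 10 members; from each pathway list up to 3 genes past the threshold or else the 2 most abundant; from marker lists the first and the most abundant; and the 3 nearest profiles of Nfkb1 and Nfkbia, of which 1 is not reported here. Genes called by DESeq2, the IkappaB kinases, Tnf, Il1b, Birc2 and the markers Pi16, Myh11, Acta2, Tagln, Tyrobp and Fcer1g were added after their values were seen, and some marker genes under that rule are given as list sums.

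Groups came from the labels. Replicates of a group differed beyond sampling noise (chi-square per degree of freedom 56.1 to 85.4). Counts were fitted with edgeR 4.0.16 in R 4.3.3 (robust quasi-likelihood, TMM scaling, default filterByExpr, 20248 genes). The SE is the coefficient over the square root of its F statistic. CPM use the TMM-scaled library size. DESeq2 1.42.0 with default settings was an alternative. Exact permutation tests on log2 ratios (counts + 0.5) used scipy 1.17.1. Exon lengths matched 91.4% of symbols. In counts simulated from these samples for this comparison (20248 genes), edgeR found 2% of 50 genes changed 2-fold, 6% of 50 changed 4-fold, 34% of 50 changed 8-fold and 92% of 50 changed 16-fold. Of its 72 calls, 5 were false. The changed genes were drawn only from those with a mean of at least 20 CPM, which Nfkb2 and Rel did not reach.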

Additional observations from a re-analysis of the deposited data

How the results depend on the processing

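In edgeR 22 of all tested genes passed with TMM scaling. The count was 43 with RLE size factors, 2 with upper quartile scaling, 7 with scaling on abundant genes (4 lower and 3 higher), 160 with no filter, 1542 with DESeq2 and 2897 with DESeq2 size factors from abundant genes (268 lower and 2629 higher). Leaving out 1 library gave 0 to 65 in edgeR (65 without circulating replicate 1, 1 without each of the others but muscle replicate 3, and 0 without that) and, in DESeq2, 1666, 1269 and 1394 without circulating replicate 1, 2 or 3 and 1002, 1117 and 826 without muscle replicate 1, 2 or 3. Of the 10 NF-kappaB genes, none passed with TMM scaling, 1 with RLE size factors, 1 with no filter, 4 with DESeq2 and 1 with DESeq2 size factors from abundant genes. Leaving out 1 library gave 0 to 1 in edgeR (Birc3, without circulating replicate 1) and 3 in each DESeq2 fit. Their median log2 fold change of -0.83 was -0.20 with upper quartile scaling, -0.19 with scaling on abundant genes and -0.11 with DESeq2 size factors from abundant genes. Leaving out 1 library gave -1.16 to -0.82 in edgeR and -1.25 to -0.94 in DESeq2.

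The sign turned for Relb with upper quartile scaling (0.45), scaling on abundant genes (0.45), DESeq2 size factors from abundant genes (0.54), and without circulating replicate 2 (0.15 in edgeR, 0.035 in DESeq2). Over the libraries left out Relb ran from -1.52 to 0.15 in edgeR and from -1.62 in DESeq2. For Nfkbiz it turned with upper quartile scaling (0.081), scaling on abundant genes (0.10) and DESeq2 size factors from abundant genes (0.18), and for Rela in DESeq2 without circulating replicate 3 (-0.052). The log2 difference of the Nfkb2 to Relb ratio, -0.33, became 1.08 without circulating replicate 3 and 0.087 without muscle replicate 2, in a range from -1.08 to 1.08. The other 7 genes and the other 3 ratios kept their sign in every setting tried. The cause of these changes was not tested. The DESeq2 fits with other size factors or fewer libraries were chosen after seeing the data.

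With the replicate block in edgeR, 1 gene passed in all, none of the 10 NF-kappaB genes did, and their median was -1.02. Same-numbered samples share only a number. Their deviations correlated at 0.00882, 0.0496 and 0.00712 for numbers 1, 2 and 3, and circulating replicates 1 and 3 correlated best with another number. For the background level, 23 of 1283 olfactory receptor symbols had an exon length, so that alternative rests on few genes, with Nfkb1 at 16.1 times background in circulating libraries. Depth limits Nfkb2 most, at 20 reads in circulating replicate 3.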
